A study of Mus musculus with 5 samples.

Results

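The 10 genes described here are Fos, Fosb, Jun, Junb, Egr1, Atf3, Ier2, Nr4a1, Sik1 and Crem, all 10 taken by symbol from the 27998 genes that the tables of all 5 libraries share. The first 8 are immediate early or early stress-response genes, and Sik1 and Crem are early targets of cAMP signalling. The group was drawn up from measured values of these same libraries, in particular from levels in EAE and Healthy libraries. Those levels are therefore given as a description, without a test. For these 10 genes, tests are given for the library set and for the mural and immune gates against the fibroblast gate. The difference of the EAE effect between library sets is built from those levels, so it is a description too.

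The cells came from the spinal cord of Col1a1GFP mice on a C57/BL6 background, in which a green fluorescent reporter marks cells that use the gene of a type I collagen chain. Single GFP+ cells were sorted after chemical and mechanical dissociation and sequenced with 10x Genomics v2 chemistry, which counts mRNA molecules by unique molecular identifiers (UMIs). Healthy mice gave 3 libraries, Healthy 1 to Healthy 3. The other 2, EAE 1 and EAE 2, came from mice in experimental autoimmune encephalomyelitis (EAE), a model in which immune cells directed against myelin enter the cord. All groups carried the reporter, and cells without it were not the target of the sort. Whether each barcode, such as those of the immune and pigment gates below, carried the reporter was not checked. The sources used here do not give age, sex, day of disease or the number of animals behind a library. Healthy 1, Healthy 2 and EAE 1 form the first library set, while the second set is made up of Healthy 3 and EAE 2 (only these have a lane number in their labels). The labels do not say that libraries came from separate animals, so every p-value measures the spread between these libraries, which may be technical.

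Libraries of the first set shared cell barcodes: 996 were in both Healthy 1 and Healthy 2, 1239 in both Healthy 1 and EAE 1, and 683 in both Healthy 2 and EAE 1. Each such barcode was counted once, where its UMI total was highest. After filters this left 724, 429 and 374 barcodes in Healthy libraries 1 to 3, 1913 in EAE 1 and 1238 in EAE 2, with 1053425 to 10151678 UMIs per library. Cell classes were gated on marker genes, none of them in the group, and the fibroblast gate held 612, 374 and 344 Healthy and 1660 and 1158 EAE barcodes. The 10 fibroblast markers, among them Col1a1, Dcn and Lum, were all detected there in every library. Levels are given as counts per 1000000 (CPM), the UMIs of a gene per 1000000 UMIs of the barcodes summed in 1 library.

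Immediate early genes are transcribed within minutes of a stimulus without new protein synthesis, from factors already present in the cell. Fos and Jun family proteins pair to form the transcription factor AP-1, Egr1 and Nr4a1 are DNA-binding factors of other families, and Atf3 is a stress-induced partner of the Jun proteins. Tissue dissociation with enzymes at warm temperature is itself known to induce these genes, in fibroblasts as in other cells. Sik1 encodes a salt-inducible kinase whose transcription is driven by CREB and which restrains the CREB coactivators in turn, and Crem encodes a relative of CREB with inducible repressor forms.

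The promoters are shown because the group is defined by rapid induction, and CREB-type elements next to the start are a known route to it. RefSeq promoter entries on GRCm38 were found for 6 of the 10 genes (Fos, Fosb, Jun, Junb, Atf3 and Nr4a1). The 250 bases before the start of 3 of them are printed 5′ to 3′ on the strand of the gene, with matches to the CRE core, the first 5 letters of the cAMP response element (CRE), in capitals (TGACG, or CGTCA where it lies on the other strand).
Fos (chr12:85473640-85473889, plus strand): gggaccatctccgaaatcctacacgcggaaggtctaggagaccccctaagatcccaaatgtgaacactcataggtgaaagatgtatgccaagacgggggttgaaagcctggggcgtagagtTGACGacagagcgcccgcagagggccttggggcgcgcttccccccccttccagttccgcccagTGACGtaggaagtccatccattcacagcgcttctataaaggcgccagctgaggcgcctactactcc
Junb (chr8:84978749-84978998, minus strand): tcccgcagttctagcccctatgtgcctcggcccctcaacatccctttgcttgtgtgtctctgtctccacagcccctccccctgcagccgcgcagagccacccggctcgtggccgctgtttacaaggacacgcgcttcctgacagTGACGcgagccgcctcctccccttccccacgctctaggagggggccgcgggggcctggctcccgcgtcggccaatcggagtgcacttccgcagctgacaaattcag
Nr4a1 (chr15:101266596-101266845, plus strand): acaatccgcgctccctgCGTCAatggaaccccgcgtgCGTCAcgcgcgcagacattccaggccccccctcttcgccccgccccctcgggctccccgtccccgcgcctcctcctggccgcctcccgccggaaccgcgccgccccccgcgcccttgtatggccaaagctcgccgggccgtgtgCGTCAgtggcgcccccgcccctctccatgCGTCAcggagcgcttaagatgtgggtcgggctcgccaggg
Fos held 2 CRE cores, Junb 1 and Nr4a1 4. A CRE core was present in 5 of the 6 promoters, all but that of Jun, and in 17.8% of 32851 promoter windows of the same length. The full CRE (TGACGTCA, 1.55% of windows), the AP-1 site (TGANTCA, 6.75%) and the CArG box of serum response factor (1.47%) were in 0 of the 6. Both strands were searched, a full CRE contains a CRE core, and a match is a run of letters and not a measured binding site. Only the 250 bases before the start were searched, so an absence says nothing of sites further upstream. Sik1, Egr1, Ier2 and Crem had no promoter entry and were not searched. Sik1 lies at chr17:31844250-31855804 on the minus strand of GRCm38.

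Among the AP-1 genes, Fos, the best known immediate early gene, was measured in the fibroblast gate at 3732, 4307 and 2771 in Healthy libraries 1 to 3 and 1980.3 in EAE 1 and 1758 in EAE 2. Both EAE libraries were below all 3 Healthy libraries. Fosb, a close relative of Fos with a longer-lived truncated form, was at 1975, 1446 and 1239 in Healthy libraries 1 to 3 and 719 in EAE 1 and 1200.0 in EAE 2, so that EAE 2 lay just under Healthy 3. Jun, which pairs with Fos proteins, was at 1839, 2619 and 2445 in Healthy libraries 1 to 3 and 1099 in EAE 1 and 1854 in EAE 2. The groups overlapped for Jun, with EAE 2 just above Healthy 1. Junb, a Jun family member that often tempers Jun, was at 4041, 2969 and 3466 in Healthy libraries 1 to 3 and 1122 in EAE 1 and 2004 in EAE 2, with a wide gap between the lowest Healthy library and EAE 2. Atf3 was at 224, 139 and 221 in Healthy libraries 1 to 3 and 60.6 in EAE 1 and 128 in EAE 2, with EAE 2 close under Healthy 2.

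Of the other early genes, Egr1, a zinc-finger factor, was at 1867, 1564 and 1997 in Healthy libraries 1 to 3 and 867 in EAE 1 and 1373 in EAE 2. Ier2, a small nuclear protein induced with Fos and Egr1, was at 977, 1069 and 875 in Healthy libraries 1 to 3 and 304 in EAE 1 and 431 in EAE 2, and its EAE values were below the lowest Healthy value by the widest margin of the 10 genes in proportion. Nr4a1, an orphan nuclear receptor, was at 706, 148 and 524 in Healthy libraries 1 to 3 and 165 in EAE 1 and 450.2 in EAE 2. The order of Nr4a1 was not that of state: Healthy 2 was the lowest library and EAE 1 the next, and the other 3 lay well above both.

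Sik1 was the only member with a higher fitted level in EAE. It was at 42.5, 9.95 and 23.8 in Healthy libraries 1 to 3 and 33.1 in EAE 1 and 78.7 in EAE 2, from 40, 12 and 35 Healthy UMIs and 286 and 547 EAE UMIs. Exact 95% Poisson intervals, which cover counting error only, were 30.3 to 57.8, 5.14 to 17.4 and 16.6 to 33.1 for Healthy libraries 1 to 3, 29.3 to 37.1 for EAE 1 and 72.3 to 85.6 for EAE 2. EAE 2 stood above every other library, Healthy 2 below every other except for a narrow overlap with Healthy 3, and the intervals of EAE 1, Healthy 1 and Healthy 3 overlapped. Crem was at 37.2, 13.3 and 31.3 in Healthy libraries 1 to 3 and 17.6 in EAE 1 and 32.4 in EAE 2. Healthy 2 was the lowest library for Crem too, and the other 4 libraries overlapped between states.

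**Figure D1:**
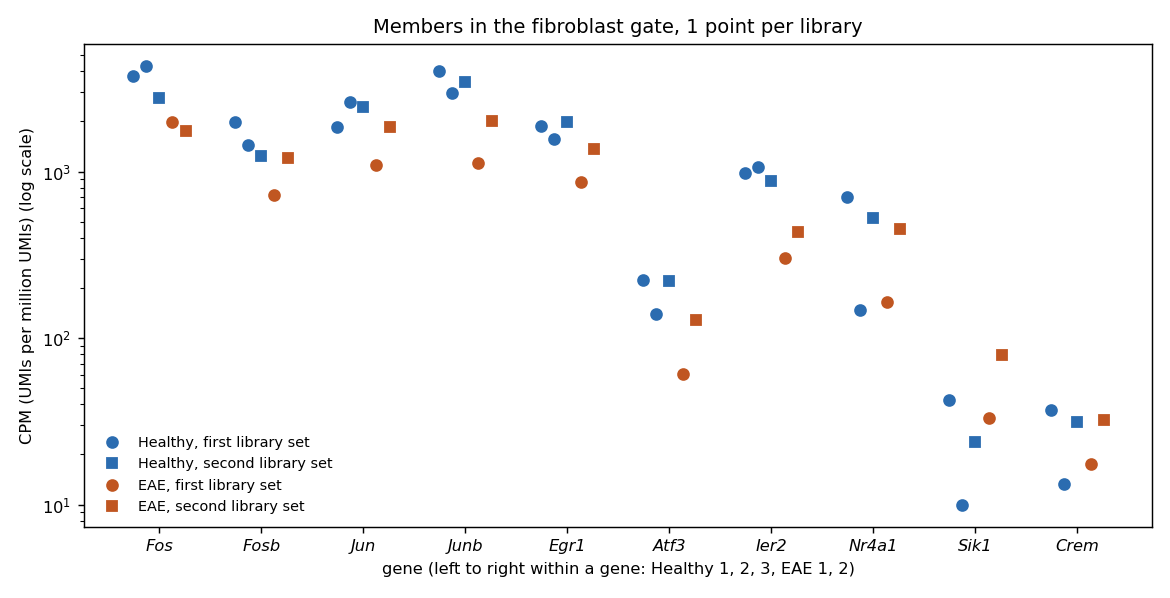
Level of each gene in the fibroblast gate, in CPM on a log axis, with 1 point per library (blue Healthy, orange EAE, circles the first and squares the second library set). For 6 genes (Fos, Fosb, Junb, Egr1, Atf3, Ier2) both EAE points are below all Healthy points, whereas Nr4a1, Sik1 and Crem are lowest in Healthy 2.

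Fitted with edgeR over all genes with terms for state and library set, the log2 fold change of EAE over Healthy was -0.96 (SE 0.17) for Fos, -0.81 (SE 0.29) for Fosb, -0.84 (SE 0.22) for Jun and -1.36 (SE 0.23) for Junb. It was -1.32 (SE 0.27) for Atf3, -0.88 (SE 0.18) for Egr1, -1.53 (SE 0.22) for Ier2, -0.94 (SE 0.86) for Nr4a1, -0.32 (SE 0.34) for Crem and 0.90 (SE 0.57) for Sik1. All 10 genes passed the filter on low counts, 9 of the 10 values were negative, and their median was -0.91 where that of all 9878 genes tested was 0.00. Both EAE libraries lay below every Healthy library for 6 of the 10 (Fos, Fosb, Junb, Egr1, Atf3 and Ier2), against a background of 18.7% of genes tested (27.7% lay above). Over all kept barcodes, whatever their gate, 6 of 10 again lay below without overlap (background 18.3% below and 26.7% above), and Sik1 was at 0.66 (SE 0.41).

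Several properties of the libraries moved with state in the fibroblast gate. Depth per barcode had a median of 1301.5, 3152 and 4328 UMIs in Healthy libraries 1 to 3 against 4670 in EAE 1 and 5186.5 in EAE 2. Summed over 11 mural markers, the gate held 1663, 1351 and 1544 CPM in Healthy and 832 and 962 in EAE libraries, with 10 or 11 of the 11 detected in each library. The 13 immune markers summed to 5.31 to 15.8 CPM in Healthy and to 54.1 and 77.5 in EAE 2 and EAE 1, with 8 to 10 of the 13 at 0 in each Healthy library and 0 of them at 0 in EAE libraries. The 7 endothelial markers summed to 96.6, 81.3 and 114 in Healthy and 260.3 and 268 in EAE libraries, and Cldn5 and Kdr were at 0 in every Healthy library. The 13 heat shock genes, another readout of cell stress, summed to 6092, 4122 and 5282 in Healthy libraries 1 to 3, 3868 in EAE 1 and 4973 in EAE 2, so the states overlapped. The part of these properties in the levels above was not tested. Among barcodes of 2000 to 4000 UMIs alone, with a median of 2616.5 to 3234.5 UMIs in every library, Fos was at 3742, 5133 and 3759 in Healthy libraries 1 to 3 and 3099 in EAE 1 and 2358 in EAE 2. Junb in those barcodes was at 4243, 3522 and 4684 in Healthy libraries 1 to 3 and 1561 in EAE 1 and 2705 in EAE 2. The fitted fold changes there were -0.63 for Fos and -1.13 for Junb, smaller than over all barcodes, and 1.16 for Sik1.

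The shared barcodes touched these values. With every barcode left where it was deposited, EAE lay below Healthy without overlap for Fos, Junb and Ier2 only, 3 of the 10 (17.2% of the genes tested). With every shared barcode left out, which reduced EAE 1 to 473 and Healthy 2 to 104 barcodes, it did so for Fosb, Junb and Ier2, also 3 of the 10 (12.7% of the genes tested). Fos in EAE 1 was then at 3111 CPM, above Healthy 3, and its fold change was -0.64. Junb and Ier2 kept separate groups under all 3 treatments, with fold changes between -1.36 and -1.07 and between -1.53 and -1.27. Sik1 went the other way: as deposited it was at 26.9, 11.6 and 23.8 in Healthy libraries 1 to 3 and 33.3 in EAE 1 and 78.7 in EAE 2, and with shared barcodes left out at 40.9, 0 and 23.8 in Healthy libraries 1 to 3 and 47.9 in EAE 1 and 78.7 in EAE 2, both with EAE above Healthy. The 0 in Healthy 2 rests on 104 barcodes and allows up to 19.8 CPM. In the whole fibroblast gate the overlap between states for Sik1 thus rests on Healthy 1. Its level was 42.5 with barcodes counted once and 26.9 as deposited. No intervals for counting error were computed for the last 2 treatments, so the separation of EAE 1 from Healthy 1 there is not set against it. With barcodes counted once, 27.7% of genes tested had every EAE library above every Healthy library. That share was not computed for the last 2 treatments.

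The 2 library sets gave within-set differences of the same sign for most members. EAE 1 was below both Healthy 1 and Healthy 2 for 7 of the 10 genes, as for 29.9% of all genes tested. EAE 2 was below Healthy 3 for 8 of the 10, as for 45.1% of all genes tested. The genes were chosen on levels in EAE and Healthy libraries, so nothing is read from these counts. For Fos the log2 ratio was -0.91 and -1.12 against Healthy 1 and 2 in the first set and -0.66 in the second. For Ier2 it was -1.69 and -1.82 in the first set and -1.02 in the second. Fosb was far below Healthy in the first set (-1.46 and -1.01) and level with it in the second (-0.05). For Sik1 the ratio was -0.36 against Healthy 1, 1.73 against Healthy 2 and 1.72 in the second set. EAE 2 was above EAE 1 for 9 of the 10 genes, all but Fos, while this held for 48.1% of all genes tested.

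Tested with edgeR, 0 of the 10 genes differed between library sets at equal state, against a background of 1.08% of all genes (0.273% higher and 0.81% lower). The unadjusted edgeR p was under 0.05 for 2 of the 10 (Fos 0.0322 and Atf3 0.0410), as for 1111 of the 9878 genes tested. In simulated counts, 7 of 96 genes given a log2 change of 1 between sets were called in the right direction. The 0 of 10 thus does not show that the sets are alike. The log2 difference, second set minus first, was -0.41 (SE 0.17) for Fos with an edgeR adjusted p of 0.372, and 0.61 (SE 0.26) for Atf3 with an adjusted p of 0.409. For Nr4a1 it was 0.79 (SE 0.83) and for Sik1 0.69 (SE 0.57), errors wide enough to hold a change of more than 2-fold. Of the 10 differences 9 were positive, as were those of 4611 of the 9878 genes tested. The difference of the EAE effect between the sets, second minus first, also passed for 0 of the 10 genes by edgeR (background 0.132%, with 0.113% higher and 0.0189% lower), and 3 had an unadjusted p under 0.05: Fosb at 1.23 (SE 0.52), Sik1 at 1.36 (SE 0.63) and Nr4a1 at 1.16 (SE 0.58). It was positive for all 10 genes, with a median of 0.79, where 50.9% of all genes were positive. The difference is built from EAE and Healthy levels, on which the genes were chosen, so nothing is read from this count either. The fit of that difference has 1 residual degree of freedom, the pair Healthy 1 and Healthy 2.

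**Figure D2:**
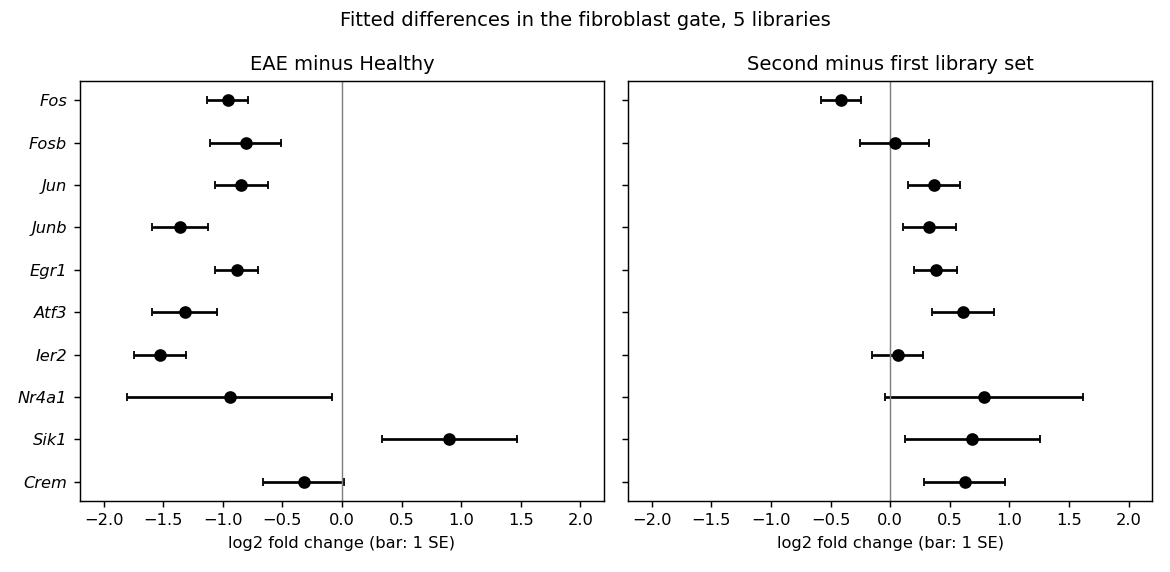
Fitted log2 fold change with 1 SE for each gene in the fibroblast gate, for EAE minus Healthy (left) and second minus first library set (right), from 5 libraries. On the left 9 of 10 values are below 0 and Sik1 is above. On the right 9 of 10 are above 0, as are 4611 of the 9878 genes tested, and none of the 10 passed the test.

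Single libraries weighed most on the genes with the widest errors. Leaving out each library in turn, the fold change of EAE over Healthy ran from -1.12 to -0.72 for Fos, from -1.85 to -1.09 for Ier2 and from -1.74 to -0.86 for Junb. For Fosb it ran from -1.34 to -0.11, the smallest without EAE 1. For Nr4a1 it ran from -1.45 to -0.11, the smallest without Healthy 1. For Sik1 it ran from 0.30 without Healthy 3 to 1.66 without Healthy 1, and stayed positive in all 5 fits. The fits without Healthy 3 or without EAE 2 rest on the first library set alone, and the fit without EAE 1 on the second alone. For Crem it turned to 0.12 without Healthy 1.

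Fibroblast subsets were gated on marker sets that came from clusters of these same cells, so their values are a description with no test, and deeper barcodes enter such gates more readily. In the Clec3b, Fmod and Igfbp2 subset Fos was at 5836, 6459.6 and 4221 in Healthy libraries 1 to 3 and 2548 in EAE 1 and 2826 in EAE 2, and in the Itih5, Hsd11b1 and Edn3 subset at 6105, 5882 and 3629 in Healthy libraries 1 to 3 and 1780.3 in EAE 1 and 2018 in EAE 2. Both subsets had EAE below Healthy without overlap for Fos, and the share of all genes that did so was not computed in them. The Osr2 and Gfra1 subset reached 20 barcodes only in Healthy 2, Healthy 3 and EAE 2, and its Fos was lowest in Healthy 3. The log2 ratio of EAE 2 over Healthy 3 there was 0.49 for Fos, 1.08 for Fosb, 0.68 for Junb, 0.18 for Ier2 and 1.30 for Nr4a1. For Jun, Egr1 and Atf3 it was -0.16, -0.12 and -0.66. In the Tnc, Cxcl9 and Col7a1 subset, which reached 20 barcodes only in EAE libraries, Fos was at 955 in EAE 1 and 694 in EAE 2. Nr4a1 in that subset was at 43.5 in EAE 1 and 117 in EAE 2 and Egr1 at 489.8 in EAE 1 and 563 in EAE 2, below the whole fibroblast gate of the same library for each gene. The Tnc subset also had the deepest barcodes of the 8 subsets in both libraries, with a median of 7602 and 11464.5 UMIs per barcode. In the Inmt, Cldn1 and Aldh1a3 subset Nr4a1 was at 349 in EAE 1 and 947 in EAE 2, above the whole gate of both libraries.

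For Sik1 the subsets divided the Healthy libraries. In the Clec3b subset it was at 84.8, 41.1 and 51.1 in Healthy libraries 1 to 3 and 48.8 in EAE 1 and 96.0 in EAE 2, with the states overlapping and a fitted fold change of 0.19. In fibroblast-gate barcodes outside that subset it was at 24.3, 3.04 and 8.50 in Healthy libraries 1 to 3 and 30.3 in EAE 1 and 76.4 in EAE 2, with no overlap between states and a fold change of 1.96. The Healthy values outside the subset rest on 16, 3 and 8 UMIs. No share of all genes with EAE above or below Healthy without overlap was computed outside the subset. In the whole fibroblast gate 27.7% of genes tested lay above and 18.7% below. In the Itih5 subset Sik1 in EAE 1 was below every Healthy library, and in EAE 2 above every one. The log2 ratio there was -0.28 against Healthy 1 and -0.36 against Healthy 2 in the first set, and 0.98 in the second. The subset held 87, 53 and 115 barcodes in Healthy libraries 1 to 3. Their Sik1 UMIs are only a part of the 40, 12 and 35 in the whole fibroblast gate. No intervals for counting error were computed for this subset, so the order is not set against it. In the Osr2 and Gfra1 subset Sik1 was at 0 in Healthy 2 and 2.94 in Healthy 3 and 9.30 in EAE 2, from 0, 1 and 1 UMIs, and the 0 allows up to 24.5 CPM. Fos outside the Clec3b subset was at 2829, 3828 and 1958 in Healthy libraries 1 to 3 and 1883 in EAE 1 and 1612 in EAE 2, still with EAE below Healthy and a fold change of -0.72. In barcodes outside every subset gate, 3 of the 10 genes (Junb, Egr1 and Ier2) had EAE below Healthy without overlap, as did 12.8% of the genes tested, and Sik1 was at 16.5, 3.83 and 14.9 in Healthy libraries 1 to 3 and 30.9 in EAE 1 and 69.9 in EAE 2.

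**Figure D3:**
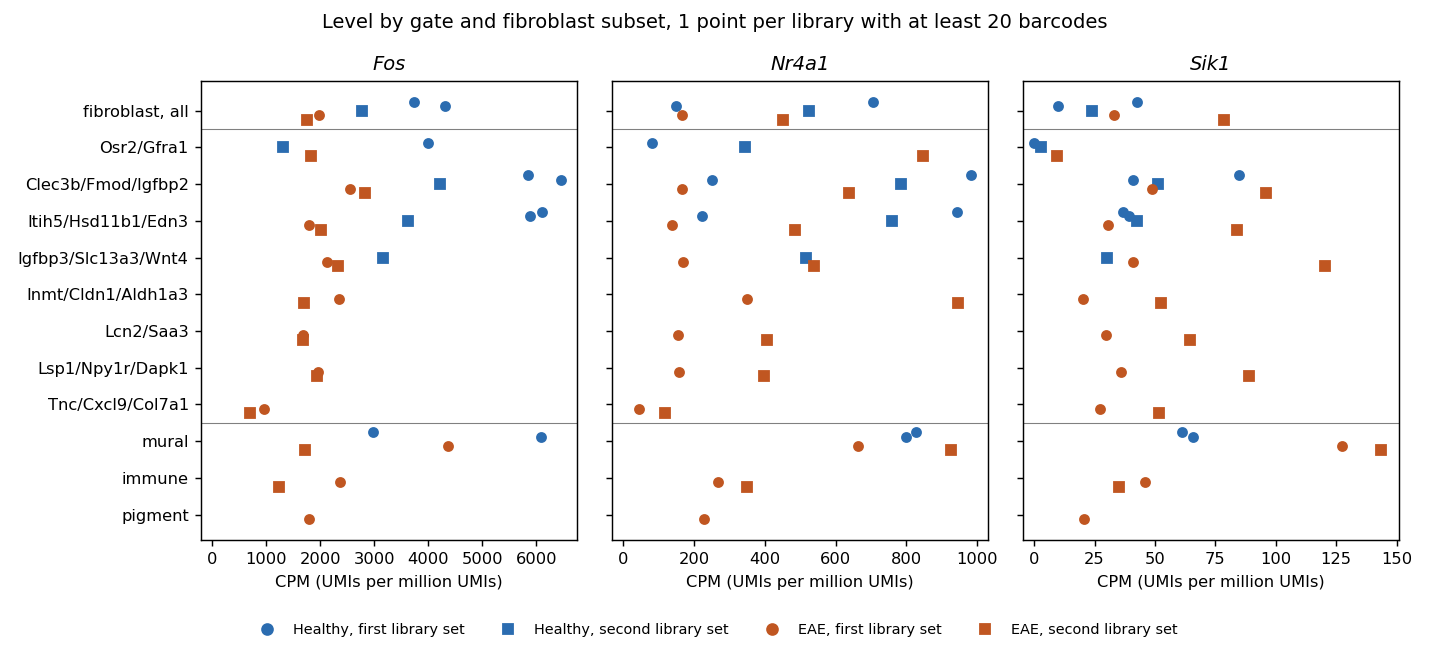
Fos, Nr4a1 and Sik1 in CPM (linear axes) in the whole fibroblast gate, in 8 fibroblast subsets and in the mural, immune and pigment gates, with 1 point per library holding at least 20 barcodes (blue Healthy, orange EAE, circles first and squares second library set). Fos is high in Healthy 1 and 2 in the Clec3b and Itih5 subsets, and Sik1 is highest in the mural gate of the EAE libraries.

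Cells of other classes went through the same dissociation and library, so that gates could be compared within a library. The mural gate (pericytes and smooth muscle of vessel walls) held 21 and 26 barcodes in Healthy 1 and 2 and 40 and 27 in EAE 1 and 2, and Healthy 3 with 17 was left out. Atf3 was higher in mural than in fibroblast barcodes in 4 of 4 libraries, at 306 in Healthy 1 and 1018 in Healthy 2 and 417 in EAE 1 and 444 in EAE 2, with a log2 difference of 1.62 (SE 0.34) and an edgeR adjusted p of 5.88e-05. Nr4a1 was higher in 4 of 4, at 827 in Healthy 1 and 799 in Healthy 2 and 664 in EAE 1 and 927 in EAE 2, with a difference of 1.02 (SE 0.32) and an edgeR adjusted p of 0.015. These were the 2 of 10 genes that passed, against a background of 14.6% of genes (5% higher and 9.58% lower). Nr4a1 had nearly level values in the mural gate, unlike in fibroblasts. Its adjusted p rose to 0.273 without Healthy 2 and to 0.125 without EAE 1, the libraries in which fibroblast Nr4a1 was lowest, to 0.289 without shared barcodes and to 0.347 with a stricter gate. For Atf3 the stricter gate gave 0.0554.

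Sik1 was higher in the mural gate in 4 of 4 libraries, at 61.3 in Healthy 1 and 65.7 in Healthy 2 and 128 in EAE 1 and 144 in EAE 2, but from only 2, 6, 15 and 22 UMIs. Its log2 difference was 1.11 (SE 0.42) with an edgeR adjusted p of 0.0529, and that of Crem was 1.09 (SE 0.46) with an adjusted p of 0.102. The call for Sik1 depended on the libraries, passing without Healthy 1 (edgeR adjusted p 0.0125), without Healthy 3 (0.0473) or without EAE 2 (0.0368), and on the barcodes, passing as deposited (0.0197) and from 1000 UMIs (0.0133). It also depended on the gates fitted together: with only the fibroblast and mural sums in the fit, Sik1 passed (1.13, SE 0.40, edgeR adjusted p 0.0325). It depended on the scaling too. TMM scaling set the median of all genes at -0.34, library totals set it at 0.01, and with totals Sik1 (1.47, edgeR adjusted p 0.00379), Crem (1.49, adjusted p 0.0114) and Junb (0.89, adjusted p 0.00521) passed as well. Junb, at 0.47 (SE 0.28) under TMM, also passed as deposited (edgeR adjusted p 0.00978) and without Healthy 1 (0.0356). Fosb, at -0.78 (SE 0.30), passed as lower without EAE 1 (0.0175) or without Healthy 3 (0.0396). Of all genes, 532 were higher and 1020 lower in the mural gate under TMM and 746 higher and 647 lower under library totals. Fos, Jun and Egr1 had differences of -0.11, -0.24 and -0.25 under TMM and 0.31, 0.18 and 0.17 under library totals, and passed under neither. Fos in the mural gate was at 2971 in Healthy 1 and 6087 in Healthy 2 and 4356 in EAE 1 and 1717 in EAE 2.

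With Healthy 3 left out of the mural gate, EAE 2 is the only library of its set there. The state fit with a term for library set therefore compares EAE 1 alone with Healthy 1 and Healthy 2, on 1 residual degree of freedom. No member's result from it is given, except that a change of sign for Ier2 between it and another fit is named at the end. In EAE 2, mural Fos was below both Healthy libraries, and in EAE 1 it lay between them. In EAE 1, mural barcodes held Fos at 4356 CPM where fibroblast barcodes of the same library held 1980. Both EAE libraries were above both Healthy libraries for Sik1 (background 20.8% above), and below for Fosb, Junb and Egr1 (background 15% below). The mural gate summed to 6892 to 16399 CPM of its own 11 markers and to 980 to 3037 of the 10 fibroblast markers, and all 5 pigment markers were at 0 there.

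Immune and pigment gates could be set only in EAE libraries. The immune gate held 127 and 28 barcodes in EAE 1 and EAE 2, and 4 of the 10 genes differed from fibroblasts in edgeR (background 26.7%, with 9.65% higher and 17% lower). Crem was higher, at 87.3 in EAE 1 and 175 in EAE 2 and a log2 difference of 2.47 (SE 0.48) (edgeR adjusted p 3.11e-06). Egr1 was lower, at 168 in EAE 1 and 140.3 in EAE 2 and a difference of -2.93 (SE 0.45) (edgeR adjusted p 1.74e-09). The calls for Crem and Egr1 held under all 13 alternatives, with edgeR or DESeq2 adjusted p up to 0.00939 and 2.36e-05. Fosb was lower in 2 of 2 libraries, with a difference of -1.35 (SE 0.42), but its edgeR adjusted p of 0.00647 rose to 0.155 without EAE 1 and to 0.108 with a stricter gate. Atf3 was called higher by 1.74, but this rested on EAE 1, where it was at 530.5 CPM against 60.6 in fibroblasts. In EAE 2 it was at 129 against 128. Without EAE 1 its difference was -0.15 (edgeR adjusted p 0.934), and with DESeq2 its adjusted p was 0.112. Sik1, at 45.8 in EAE 1 and 35.1 in EAE 2, did not pass (-0.09, SE 0.54).

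The pigment gate (melanocytes, 45 barcodes, only in EAE 1) is 1 sum, so its values are set beside those of the fibroblast barcodes of EAE 1 with no test. Its exact 95% Poisson intervals cover counting error only. Atf3 was at 457 CPM (408 to 511) in pigment and 60.6 (55.5 to 66.0) in fibroblast barcodes. Egr1 was at 80.4 (60.5 to 105) in pigment against 867 (847 to 887), and Junb at 202 (169 to 238) against 1122 (1100.2 to 1145). Fosb was at 355 (312 to 403) against 719 (701 to 737), and Fos at 1782 (1684 to 1885) against 1980 (1951 to 2010.2). In this library pigment barcodes were thus the higher for Atf3 and the lower for Egr1, Junb, Fosb and Fos, most of all for Egr1. They were also the higher for Nr4a1, at 228 (194 to 267) against 165 (157 to 174). Crem was higher too, at 45.3 (30.8 to 64.3) against 17.6 (14.9 to 20.6). Jun was at 1192 (1112 to 1277) against 1099 (1077 to 1121), and Ier2 at 324 (283 to 370) against 304 (292 to 315). For Jun and Ier2 the intervals overlapped. Sik1 was at 20.5 (11.2 to 34.3) from 14 UMIs, against 33.1 (29.3 to 37.1), and these intervals overlapped. The pigment barcodes were deeper than the fibroblast barcodes of EAE 1 (median 14835 against 4670 UMIs), and the part of that depth was not tested.

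**Figure D4:**
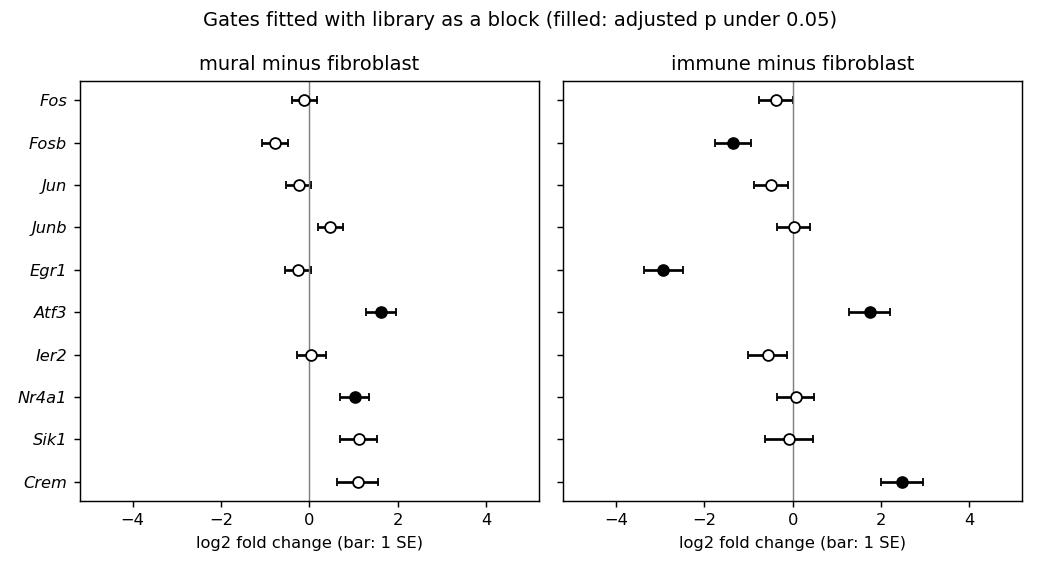
Log2 fold change with 1 SE of the mural and immune gates over the fibroblast gate, from 1 fit over all gates with library as a block, for each gene under TMM scaling (filled points: edgeR adjusted p under 0.05). Atf3 is above 0 and filled in both panels, and Egr1 is below 0 and filled in the immune panel.

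Per barcode, the 8 early genes (all but Sik1 and Crem) were summed after each fibroblast-gate barcode was thinned to 1000 UMIs. Barcodes shallower than that were left out: 222, 18 and 7 in Healthy libraries 1 to 3, 0 in EAE 1 and 44 in EAE 2. The median barcode held 11, 13 and 11 UMIs of the 8 genes in Healthy and 6 and 10 in EAE libraries. The 90th percentile was 33, 31 and 32.4 in Healthy and 14 and 20 in EAE libraries, so the states did not overlap at the upper tail, nor at the median, where EAE 2 was close to Healthy. The 10th percentile was 3, 1 and 0 in Healthy and 2 and 2 in EAE libraries. Barcodes with no UMI of the 8 genes made up 2.05%, 9.83% and 11.6% in Healthy and 2.89% and 4.67% in EAE libraries. Healthy 2 and Healthy 3 thus held both the most barcodes without these genes and, with Healthy 1, the most with very many.

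**Figure D5:**
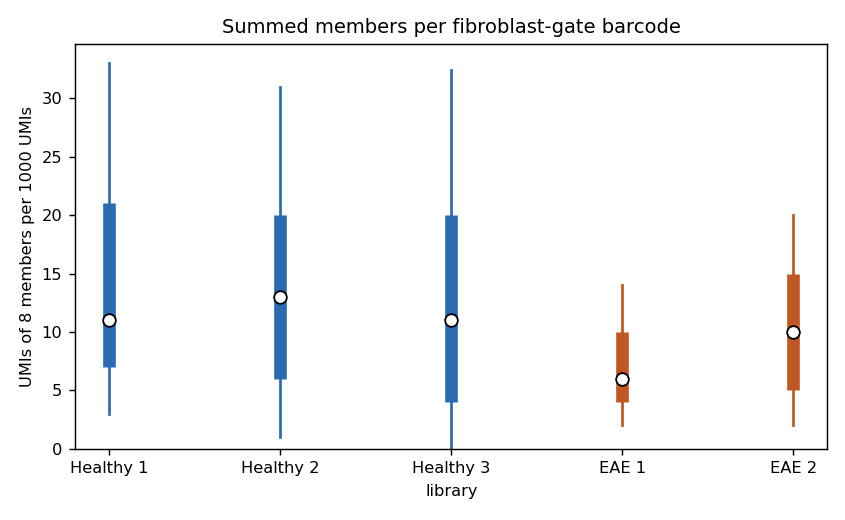
UMIs of the 8 early genes per 1000 UMIs in single fibroblast-gate barcodes of each library (circle: median, thick bar: quartiles, thin line: 10th to 90th percentile). The 90th percentile is 31 to 33 in the Healthy and 14 and 20 in the EAE libraries.

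At 1000 UMIs, a UMI of Sik1 was found in 5.13% of barcodes of Healthy 1 (exact Clopper-Pearson 95% interval 3.16 to 7.81%), 1.12% of Healthy 2 (0.307 to 2.85%) and 3.26% of Healthy 3 (1.64 to 5.77%). In EAE 1 it was 4.52% (3.57 to 5.63%) and in EAE 2 7.18% (5.74 to 8.86%). Unthinned shares were 5.72, 2.67, 7.27, 15.2 and 30.9% in the same order and moved with depth. None of the gates is known to lack Sik1, so no background share from free RNA could be set. A UMI of Nr4a1 was found in 42.6, 12.6 and 32.6% of Healthy and 14.6 and 34.6% of EAE barcodes, with Healthy 2 and EAE 1 lowest, as for its level.

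Members were found together in barcodes more in some libraries than in others, given here as a description because barcodes are not replicates. Sik1 was detected in 7.23% of Nr4a1-positive and 3.57% of Nr4a1-negative barcodes in Healthy 1, in 2.22 and 0.965% in Healthy 2 and in 7.27 and 1.32% in Healthy 3. In EAE 2 these shares were 9.84 and 5.77%, and in EAE 1 they were 3.70 and 4.66%, the other order. The Healthy shares rest on few barcodes with Sik1: 12 and 8 in Healthy 1, 1 and 3 in Healthy 2 and 8 and 3 in Healthy 3. Nr4a1 was detected in 47.1% of Junb-positive and 23.7% of Junb-negative barcodes in Healthy 1, 16.0 and 2.27% in Healthy 2 and 40.4 and 10.3% in Healthy 3. The same shares were 16.0 and 12.3% in EAE 1 and 40.1 and 16.3% in EAE 2. EAE 1 thus showed the smallest gap for both pairs, but for Sik1 the gap in Healthy 2 rests on 1 barcode with both genes.

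Other genes of these pathways were taken from 4 lists and fitted with all genes of the fibroblast gate. The lists were drawn up with earlier results of these data known, so their counts are a description and no independent support. Of 14 AP-1 and bZIP relatives 1 was called higher and 2 lower in EAE by edgeR, where 9.9% of all genes were called higher and 10.4% lower (20.3% in all). The lower were Atf5, at 205, 234 and 146 in Healthy libraries 1 to 3 and 94.6 in EAE 1 and 84.5 in EAE 2 (-1.13 (SE 0.21) on the log2 scale), and Atf4, the main factor of the integrated stress response (-1.05 (SE 0.30)). The higher, Batf3, had a mean under 20 CPM, the level set for naming list genes, and is named after its values were seen. Of 34 other early response genes 1 was called higher (Egr2, at 11.7, 9.12 and 11.6 in Healthy libraries 1 to 3 and 22.1 in EAE 1 and 40.3 in EAE 2, with a mean under 20 as well) and 8 lower, with a list median of -0.34. Socs3, a feedback inhibitor of cytokine receptors, was at 402, 809.5 and 388 in Healthy libraries 1 to 3 and 173 in EAE 1 and 163 in EAE 2 (-1.66 (SE 0.33)). Klf2 had a log2 fold change of -1.60 (SE 0.33), although EAE 1 at 215 was level with Healthy 3 at 213.

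Of 32 genes of the cAMP, CREB and SIK pathway 1 was called higher (Pde8a, named after its values were seen) and 3 lower, and the median was 0.03. The lower were Adm, which encodes the vasodilator peptide adrenomedullin (-1.56 (SE 0.21)), Creb3l1 (-0.68 (SE 0.21)) and the prostaglandin receptor gene Ptger4, which was under 20 CPM and is named after its values were seen. Both shares of that list were no larger than those of all genes. The paralogs of Sik1 did not pass: Sik3 was at 18.0, 14.9 and 23.1 in Healthy libraries 1 to 3 and 21.2 in EAE 1 and 22.5 in EAE 2, and Sik2 at 21.2, 6.64 and 17.7 in Healthy libraries 1 to 3 and 6.70 in EAE 1 and 14.4 in EAE 2. Of 13 heat shock genes 0 were called higher and 3 lower, with a median of -0.52. Hspa1a was at 210.2, 137 and 148 in Healthy libraries 1 to 3 and 50.7 in EAE 1 and 78.6 in EAE 2 (-1.49 (SE 0.27)) and Dnajb1 had a fold change of -1.44 (SE 0.27). The other lower gene was Dnaja1. The paralogs of Nr4a1, looked at after the values of Nr4a1 were known, had their lowest level in Healthy 2 as it did: Nr4a2 was at 105, 11.6 and 92.6 in Healthy libraries 1 to 3 and 28.3 in EAE 1 and 71.4 in EAE 2, and Nr4a3 at 36.1, 5.81 and 32.0 in Healthy libraries 1 to 3 and 10.9 in EAE 1 and 41.3 in EAE 2.

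Likeness of pattern was measured as Pearson's r of log2(CPM + 1) over the 12 library and gate sums, among 6180 genes with a mean of at least 20 CPM. The sums share libraries and differ in depth, so r is a description. The genes most like Sik1 were Zeb2 (0.95), Fosl2 (0.89), Tmem50b (0.88), Picalm (0.86) and Ankfy1 (0.86). The best placed member was Nr4a1, at rank 45 with an r of 0.75, and Fos had an r of -0.01 with Sik1. Among the genes most like Fos were Socs3 (0.87), Smim14 (0.86), Mphosph6 (0.85) and Phactr2 (0.85). Jun, at rank 104 with an r of 0.70, was the member most like Fos, ahead of Egr1 (0.63), Ier2 (0.63) and Fosb (0.49).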

How the data were processed

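The authors deposited UMI count matrices from 10x libraries of sorted cells, per the files raw counts per gene and barcode. Cell Ranger 2.1.1, Seurat 3 and mm10 are named in the submitters' processing notes, and the sources used here give no further settings. Of 7205 barcodes, 6902 had 200 or more detected genes and a mitochondrial share of UMIs up to 10%, and 4678 remained once each shared barcode was counted in 1 library. The libraries held 1053425 to 10151678 UMIs. No doublet caller was run, and the 38 barcodes that passed more than 1 gate with no clear lead were left out, as were the 149 that passed none.

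A gate required 3 detected markers and 30 marker UMIs per 10000, and where several passed, a share at least 2 times the next. These values were set after the data were seen. A subset gate required 2 of its markers and 3 UMIs of them. Counts were summed per library and gate, with at least 20 barcodes, and tested with edgeR 4.0.16 in R 4.3.3 (TMM scaling, filterByExpr, quasi-likelihood F test, Benjamini-Hochberg adjustment over all genes tested, threshold 0.05). The SE of a log2 fold change is its size divided by the square root of F. State was fitted with library set as a covariate, and the mural, immune, pigment and fibroblast sums in 1 fit with library as a block. The pigment estimate of that fit rests on 1 sum and borrows from the other gates, so it is not used in the results. Levels are untransformed counts per 1000000 UMIs (CPM), while folds are TMM-scaled. The scripts were tested on simulated counts with the same dispersion for all genes. A log2 change of 1 was called in the right direction for 7 of 94 genes by state and 7 of 96 by library set. For mural against fibroblast barcodes it was 4 of 91. With a log2 change of 2 the counts were 72 of 92, 67 of 98 and 34 of 91 in the same order. Alternatives were barcode treatment, depth, scaling, filter, gate, DESeq2 1.42.0 and leaving out each library.

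The members and the gene lists were chosen with earlier results of these data known. All 10 members are named. From each other list up to 2 risers and 2 fallers with the largest change and a mean of at least 20 CPM are named, and for Sik1 and Fos the 5 genes of highest r, of which 1 is not reported here. Positions are from GENCODE M21 and promoters from RefSeq, both on GRCm38. Floors are 3 counts, and intervals and floors cover counting error only.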

Additional observations from a re-analysis of the deposited data

Results flagged for a closer look

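For 2 related early genes the EAE effect differed between the library sets in the fibroblast gate, by the edgeR test of that difference. Ier5, an early response gene, was at 534, 264 and 167 CPM in Healthy libraries 1 to 3, 106 in EAE 1 and 242 in EAE 2, and its difference of effects, second set minus first, was 2.47 (SE 0.61, edgeR adjusted p 0.0438). Mafk, which encodes a small Maf protein of the bZIP family, was at 91.3, 51.4 and 28.6 in Healthy libraries 1 to 3, 29.2 in EAE 1 and 70.4 in EAE 2, with a difference of 2.60 (SE 0.64, adjusted p 0.0438). EAE 1 was below both Healthy libraries of its set for both genes, and EAE 2 above Healthy 3. With library totals in place of TMM scaling 0 genes passed this test, so neither call held.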

How the results depend on the processing

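Counts over all genes moved with the barcodes, libraries and tool used, and the cause was not tested. Genes past the threshold between states in the fibroblast gate numbered 2007, against 812 with shared barcodes left out, 1313 with DESeq2, 847 outside every subset gate, 505 among barcodes of 2000 to 4000 UMIs, 414 in the Clec3b subset alone, 874 in the Itih5 subset alone and 757 to 3034 with each library left out (the selections by subset and by 2000 to 4000 UMIs were chosen after seeing the data). Over all kept barcodes the count was 1913, and 757 to 2622 with a library left out. The members with EAE below Healthy without overlap were 6, against 3 as deposited, 3 with shared barcodes left out, 3 outside every subset gate and 6 to 7 with a library left out. Genes that differed between library sets numbered 107, against 386 as deposited, 499 with no filter and 118 to 760 with a library left out. For the difference of the EAE effect 14 passed, against 0 with library totals and 217 as deposited. In the mural gate 1 gene passed between states, 20 with library totals, 5 without EAE 2 and 0 with edgeR and no term for library set (0.12 for Ier2, which changed sign). That term and the fits with only 1 other gate beside the fibroblast sums were alternatives chosen after seeing the data. For mural against fibroblast barcodes the count was 1552, against 893 with shared barcodes left out, 538 with the stricter gate, 900 with DESeq2 and 923 to 1582 with a library left out. It was 2840 for the immune gate, 1490 with DESeq2 and 723 to 2922 with a library left out, and 2250 for the pigment gate, 1390 with shared barcodes left out and 1112 with DESeq2. The share of barcodes with Sik1 at 500 UMIs was 2.15, 0.267 and 0.872% in Healthy and 1.51 and 4.32% in EAE libraries, and without thinning it was 7.27% in Healthy 3, 15.2% in EAE 1 and 30.9% in EAE 2.

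The following values changed sign. Between library sets, with shared barcodes left out Fosb was at -0.29 and Ier2 at -0.12, and with a library left out Fosb ran from -0.51 to 0.73, Ier2 from -0.28 to 0.49, Junb from -0.061 to 0.83 and Sik1 from -0.13 to 1.24. Between states Crem was at 0.020 outside every subset gate, and ran from -0.57 to 0.12 in the fibroblast gate and from -0.74 to 0.047 over all kept barcodes with a library left out. For mural against fibroblast barcodes Fos was at 0.25 as deposited, 0.28 from 1000 UMIs, 0.31 with library totals and 0.12 with DESeq2. Jun was at 0.0087 as deposited, 0.071 from 1000 UMIs, 0.061 with the stricter gate and 0.18 with library totals, and Egr1 at 0.086 from 1000 UMIs and 0.17 with library totals. With a library left out, Fos ran from -0.37 to 0.28, Jun from -0.44 to 0.072, Egr1 from -0.43 to 0.087 and Ier2 from -0.32 to 0.72. In the immune gate Junb was at -0.14 and Nr4a1 at -0.19 with shared barcodes left out, and at -0.13 and -0.10 with no filter. With a library left out, Junb ran there from -0.14 to 0.18, Nr4a1 from -0.44 to 0.67, Atf3 from -0.15 to 3.03, Fos from -0.67 to 0.023, Jun from -1.11 to 0.12 and Sik1 from -1.15 to 0.62. The pigment estimate of Nr4a1 rests on 1 sum and borrows from the other gates, and is given only for its sign. It was -0.18 in the main fit, 0.12 from 1000 UMIs, 0.064 with the stricter gate and 0.079 with library totals. With a library left out it ran from -0.38 to 0.19. The log2 ratio of pigment over fibroblast CPM within EAE 1 was 0.46.

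No paired analysis was possible because the states share fewer than 2 replicate numbers in the labels. With a library left out, the difference of the EAE effect has no fit, and the state fit in the mural gate exists only without EAE 2 (5 genes). Few barcodes in the mural and immune gates, and 12 to 40 UMIs of Sik1 in each Healthy library, limit what these libraries can show.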
